A study of Mus musculus with 4 samples.

Results

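Among the 20722 autosomal protein-coding genes of the mouse annotation, 419 combined a promoter poor in CpG dinucleotides with a wide peak of H3K4me3 in heart. A gene was called CpG-poor where observed over expected CpG stayed below 0.4 in every window of 1000 bp either side of a protein-coding transcript start. It was taken as a member where a peak at least 1500 bp wide, in the peak list that the deposited notes call replicated, overlapped such a window by at least 1 bp. Of the 7936 CpG-poor genes, 1343 had any promoter peak (16.9%), and the 419 members made up 5.28% (95% exact binomial interval 4.80 to 5.79%, which covers counting error only). The remaining 924 marked CpG-poor genes had a narrower peak, and 6593 had none. Among the 12786 other genes, 93.0% had a promoter peak and 7266 (56.8%) a peak of at least 1500 bp. Over all genes 63.9% had a promoter peak and 37.1% one of that width. The members were selected on peak width in that list, so widths and the values read from the same peaks are given as a description and were not tested.

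H3K4me3, trimethylation of lysine 4 on histone H3, was profiled by chromatin immunoprecipitation with sequencing, using hearts of adult female B6CASTF1/J mice aged 2 months, a first-generation hybrid of the C57BL/6J and CAST/EiJ strains. The 4 libraries came from tissue pools named G and H, each made of 2 heart biosamples with 2 technical replicates, without any treatment or other genotype in the labels. Both technical replicates of a pool share 1 alignment and all labels name 1 donor record, so the pools are not shown to hold separate animals. Chromatin came from frozen tissue and the peak positions are on mm10, a genome of C57BL/6J, against which reads of the CAST/EiJ alleles were placed as well. Read depth is not given in the sources used here. Because whole tissue was used, fewer cells carrying the mark and less mark per cell cannot be told apart.

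H3K4me3 marks the starts of active genes, and in mammals most of it lies on CpG islands, stretches of unmethylated, CpG-rich DNA that methyltransferase complexes recognise through proteins that bind unmethylated CpG. Promoters outside islands are typical of genes used in 1 or a few tissues, such as those of muscle contraction, and are marked mainly where the gene is active. Wide domains of the mark, which run into the gene body, are known from genes of cell identity and from strongly transcribed genes.

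The sequences below are examples of such promoters. Each holds the 120 bp before the principal annotated start and the first 30 bp from it, read on the gene's strand from the GRCm38 reference (mm10), with every CpG in capitals. Tnnt2 encodes cardiac troponin T, Jph2 the junctophilin that couples membrane and calcium store, and Cd36 the fatty acid translocase. Lama4 encodes a laminin chain of vessel basement membrane, Smtn the smooth muscle protein smoothelin, Smyd1 a methyltransferase of striated muscle, and Bmp4 a secreted growth factor. Each is the widest member, among those whose peak is not shared, of 1 gene list.
Tnnt2, chr1:135836234-135836383, plus strand: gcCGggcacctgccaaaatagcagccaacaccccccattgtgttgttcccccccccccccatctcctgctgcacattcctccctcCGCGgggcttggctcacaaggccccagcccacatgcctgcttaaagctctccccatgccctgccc
Jph2, chr2:163397920-163398069, minus strand: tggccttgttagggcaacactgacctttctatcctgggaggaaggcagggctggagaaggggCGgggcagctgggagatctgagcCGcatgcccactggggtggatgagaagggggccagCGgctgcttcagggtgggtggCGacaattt
Cd36, chr5:17849763-17849912, minus strand: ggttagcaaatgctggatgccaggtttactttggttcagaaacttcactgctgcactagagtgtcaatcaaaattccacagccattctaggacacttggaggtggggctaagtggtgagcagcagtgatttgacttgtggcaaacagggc
Lama4, chr10:38965395-38965544, plus strand: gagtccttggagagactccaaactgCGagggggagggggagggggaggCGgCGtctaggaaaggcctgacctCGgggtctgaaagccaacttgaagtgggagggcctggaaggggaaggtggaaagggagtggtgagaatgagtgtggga
Smtn, chr11:3539263-3539412, minus strand: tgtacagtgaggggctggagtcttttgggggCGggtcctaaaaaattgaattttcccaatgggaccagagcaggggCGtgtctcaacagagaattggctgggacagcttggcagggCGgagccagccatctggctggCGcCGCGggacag
Smyd1, chr6:71262224-71262373, minus strand: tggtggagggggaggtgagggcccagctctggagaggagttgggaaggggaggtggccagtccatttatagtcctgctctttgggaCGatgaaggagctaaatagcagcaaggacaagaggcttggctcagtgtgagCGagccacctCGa
Bmp4, chr14:46390640-46390789, minus strand: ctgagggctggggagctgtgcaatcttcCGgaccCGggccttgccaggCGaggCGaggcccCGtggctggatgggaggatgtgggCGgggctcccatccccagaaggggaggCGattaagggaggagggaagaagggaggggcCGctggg
The 7 promoters held 0 to 8 CpGs in these 150 bases. Cd36 had none in view, and its peak of 6068 bp ended 33428 bp upstream of this principal start, at another annotated start of the gene.

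The same sparseness held at the median of all members, though not in each of them. From 250 bp before to 50 bp after the start, members had a median of 6 CpGs (range 0 to 28). The median was 7 in CpG-poor genes with a narrower peak, 2 in unmarked CpG-poor genes and 24 in other genes with a wide peak. Within the peaks themselves the median observed over expected CpG was 0.298 in members, against 0.397 in narrower CpG-poor peaks and 0.675 in other wide peaks. The GC share of the peaks differed less, with a median of 51.6% in members, 54.2% in narrower CpG-poor peaks and 55.2% in other wide peaks. A scan of each peak in windows of 200 bp for island-like sequence, with an observed over expected ratio reaching 0.6 and GC reaching 0.5, found at least 1 such window in 249 members (59.4%), and in 99.1% of other wide peaks. In 170 members no window passed. Island-like windows made up a median of 2.44% of a member's peak, against 4.66% of narrower CpG-poor peaks and 43.0% of other wide peaks. Of the genes whose sequence is shown above, Bmp4 had 45.3%, and the others had 0.0 to 8.73%. Low CpG in the promoter window was part of the rule. The values above cover the whole peak, including its part inside that window, and the part beyond it was not measured alone.

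Members had a median peak width of 2131 bp (quartiles 1754 and 2907 bp, highest 7083 bp), close to the 2065 bp of other genes with a wide peak, both above the same threshold. Of the members, 192 were under 2000 bp, 131 from 2000 to 3000 bp, 57 from 3000 to 4000 bp and 39 at least 4000 bp. Just inside the threshold stood Lipa at 1500 bp, Ppm1f at 1501 bp and Cyp4f13 at 1502 bp, and just outside it Gng3 at 1493 bp, Nostrin at 1492 bp and Gm49027 at 1486 bp. The authors' signal value, read here as fold enrichment over a control, had a median of 9.63 in members, 6.83 in narrower CpG-poor peaks and 17.2 in other wide peaks. Thus members were about as wide as other wide peaks and lower. Across members, width and fold enrichment of the same peak were nearly unrelated (Spearman's rho -0.0165, n = 419, points drawn from 1 peak list). The 419 members lay in 409 distinct peaks, since 10 peaks held a pair of members each, and 45 members (10.7%) had a peak that also reached the promoter window of another coding gene, against 9.0% of narrower CpG-poor genes and 26.6% of other wide ones. For those members the peak cannot be assigned to 1 gene, and in 9 of them the neighbour was CpG-rich.

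The widest unshared peaks lay at genes of varied function. Tmem204, a membrane protein of endothelium, had a peak of 7083 bp in the replicated list, 7611 bp for pool G and 5393 bp for pool H. Cavin2, which encodes a caveolar coat protein, had 6721 bp in the replicated list (chr1:51288519-51295239, mm10), 6844 bp for pool G and 6442 bp for pool H. Cd93, an endothelial surface receptor, had 6492 bp in the replicated list (chr2:148437625-148444116), 6550 bp for pool G and 4561 bp for pool H. All 3 stayed far above the threshold in both pools. Cpeb4, a translation regulator that binds messenger RNA, had 5940 bp in the replicated list, 6685 bp for pool G and 4980 bp for pool H. Ackr3, a scavenging chemokine receptor, had 5852 bp in the replicated list, 6106 bp for pool G and 4152 bp for pool H. Fabp4, a fatty acid binding protein of capillary endothelium and fat, had 5036 bp in the replicated list, 5302 bp for pool G and 5024 bp for pool H.

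Some wide peaks differed between the pools. Bmp4 had 5266 bp in the replicated list and 5581 bp in pool G, against 983 bp in pool H. Perm1, a muscle regulator of mitochondrial genes, had 5028 bp in the replicated list and 5177 bp in pool G, against 2001 bp in pool H. C1qtnf9, a secreted protein related to adiponectin and chosen after its values were seen, had 3891 bp in the replicated list and 4105 bp in pool G, against 474 bp in pool H. For these 3 genes the width in the replicated list followed pool G, and by pool H's own list alone Bmp4 and C1qtnf9 fell below the threshold. Jph2 was the reverse, with 5665 bp in the replicated list, 2313 bp for pool G and 4785 bp for pool H. Pln, which encodes the calcium pump inhibitor phospholamban, had 4528 bp in the replicated list, 8770 bp for pool G and 3310 bp for pool H. These are widths of single peaks. With gaps of up to 1000 bp joined in the replicated list, Pln reached 8174 bp and Jph2 6939 bp, while Bmp4 stayed at 5266 bp and Perm1 at 5028 bp. Gaps were not joined in the pools' own lists, so the part of gaps in these differences was not tested.

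Over all members the peaks of pool G were wider. Median widths were 2250 bp for pool G and 1759 bp for pool H, the median difference (G minus H) was 413 bp, and 378 members were wider in pool G and 40 in pool H. A peak of at least 1500 bp was listed for 412 members in pool G (98.3%), for 307 in pool H (73.3%) and for 305 in both. Other genes with a wide peak passed that width in 99.0% of cases in pool G and 82.6% in pool H, so the gap between the pools was not confined to CpG-poor genes. Within the members the share still wide in pool H grew with width, from 54.2% of those under 2000 bp through 86.3% and 91.2% to 97.4% of those of at least 4000 bp. Any promoter peak was listed for 418 members in pool G and 417 in pool H. The exceptions, named after their values were seen, were Tmem102 in pool G and Vpreb1 and Lrrc17 in pool H. Median fold enrichment was 11.99 in pool G and 8.25 in pool H, and the order of members was similar (Spearman's rho 0.81 over the 416 members marked in both, and 0.72 for width over all 419). The pools' lists come from the libraries behind the replicated list and are no independent check of the choice.

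**Figure D1:**
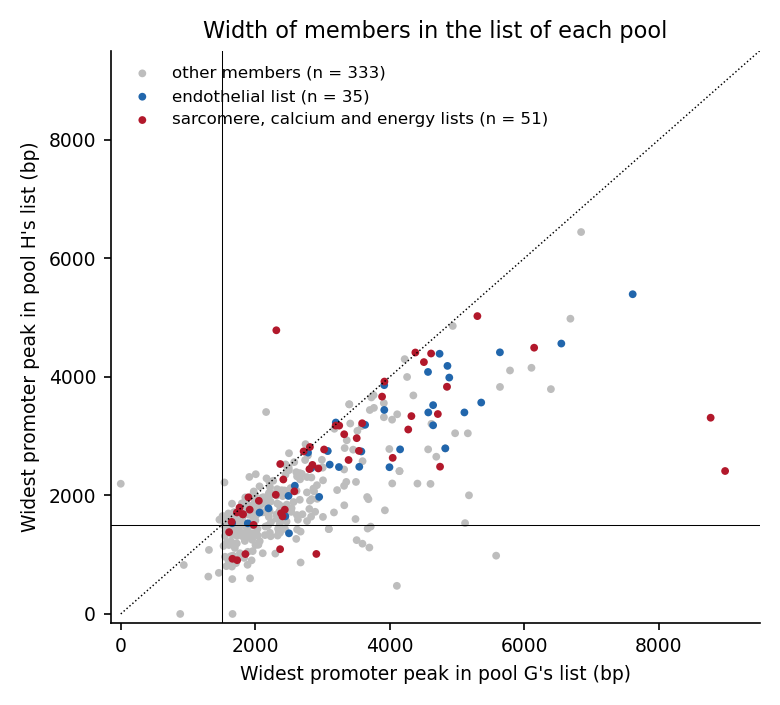
Width of the widest promoter peak of each of the 419 members in the list of pool G (x axis, bp) against that of pool H (y axis, bp); red points are the 51 members of the sarcomere, calcium and energy lists, blue points the 35 of the endothelial list and grey points the other 333. Thin lines mark 1500 bp and the dotted line marks equal width; most points, 378 of 419, lie below it, that is, wider in pool G.

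The mark of members lay downstream of the start. Of the peak of a member, a median of 86.7% lay downstream of the principal start, against 75.7% in narrower CpG-poor peaks and 65.0% in other wide peaks. In base pairs, member peaks had a median of 329 bp lying upstream of the principal start and 1766 bp lying downstream. Other wide peaks, of about the same width, had 727 bp upstream and 1311 bp downstream. The difference was in the upstream side as much as in the downstream one. Where the comparison was limited to peaks that cover the principal start, the downstream share was 82.8% in the 304 members, 68.5% in 619 narrower CpG-poor genes and 64.6% in 6431 other wide ones. The highest point of the peak lay downstream of the start in 88.5% of members, against 81.1% of narrower CpG-poor genes and 76.3% of other wide genes, at a median of 282 bp, against 166 bp and 200 bp.

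**Figure D2:**
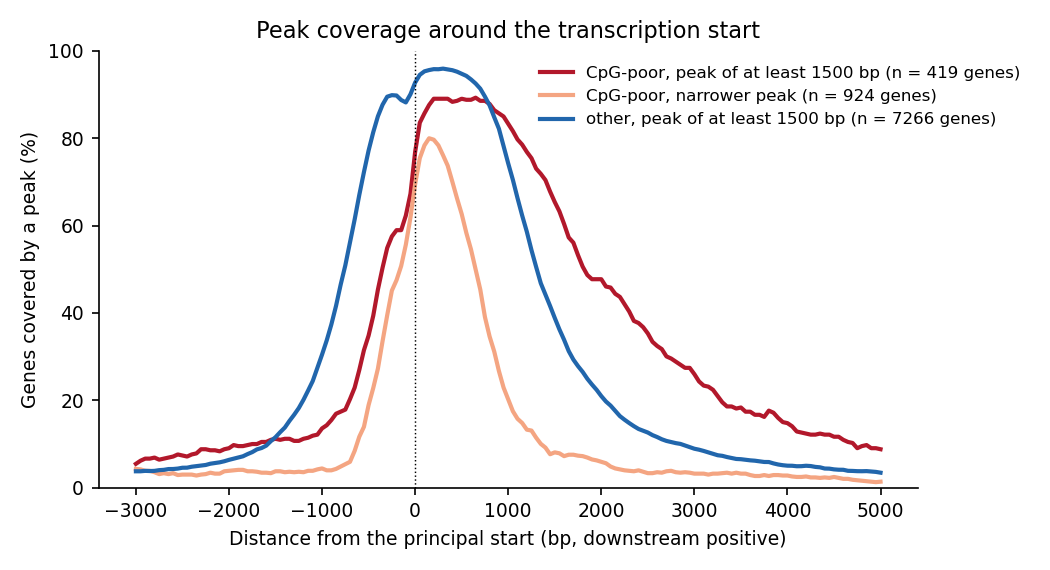
Share of genes (y axis, %) whose position at a given distance from the principal start (x axis, bp, downstream positive) is covered by a peak of the replicated list, for 419 members (red), 924 CpG-poor genes with a narrower peak (light orange) and 7266 other genes with a wide peak (blue). At 500 bp upstream 34.8% of members, 18.9% of narrower CpG-poor genes and 77.2% of other wide genes are covered, and at 2000 bp downstream 47.7%, 5.95% and 21.0%, in the same order.

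In many members the widest peak left out the annotated start itself. It covered the principal start in 304 of 419 members (72.6%, 95% interval 68.0 to 76.8%), against 67.0% of narrower CpG-poor genes and 88.5% of other wide genes. Any protein-coding start was covered in 357 members (85.2%), against 76.0% of narrower CpG-poor genes and 96.5% of other wide genes. Of the 62 members with no start covered, 45 had the peak downstream of the principal start and 17 upstream, at a median distance of 174 bp, and 20 of them shared the peak with another gene. Counting every peak of all 4 lists, 36 members had no protein-coding start under a peak, among them Perm1, Lmod2, Myh6, Myoz2 and Xirp1, which were named after their values were seen. How close the annotated starts lie to those used in heart was not tested.

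Genes of the sarcomere, the contractile unit of muscle, had the most one-sided peaks of the lists with at least 5 members. Of the 36 CpG-poor genes of this list, 24 were members, 7 had a narrower peak and 5 had none, beside the 5.28% of all CpG-poor genes that were members. Their peaks were 3216 bp wide at the median, with 99.8% of the median peak downstream of the principal start. The upstream edge of the peak lay within 100 bp of the principal start in 18 of the 24 (75.0%), against 22.4% of all members, 23.4% of narrower CpG-poor peaks and 7.09% of other wide peaks. In the pools' own lists the count was 15 of 24 in pool G and 16 of 24 in pool H. In 12 of the 24 the edge lay past the principal start, which was left uncovered, by 9 bp in Tnnt2 and by up to 906 bp in Hspb7, a small heat shock protein of heart muscle. Counting any protein-coding start, the widest peak covered one in 15 of the 24. In the 7 sarcomere genes with a narrower peak the upstream edge was within 100 bp of the principal start in 5.

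Single genes show the same layout. Tnnt2 had a peak of 4710 bp in the replicated list (chr1:135836363-135841072), 3387 bp for pool G and 2597 bp for pool H, and in the replicated list it began 9 bp after the principal start. Mybpc3, which encodes cardiac myosin binding protein C, had 4483 bp in the replicated list, 4321 bp for pool G and 3337 bp for pool H, with its edge 58 bp before the start. Popdc2, a membrane protein of heart muscle, had 4265 bp in the replicated list, 4507 bp for pool G and 4248 bp for pool H, with its edge 22 bp before the start. Each of these peaks began at the start and ran over 4000 bp into the gene. Mylk3, the cardiac myosin light chain kinase, had 3928 bp in the replicated list and 3920 bp in each pool, with its edge 14 bp before the start. Myh6, the main myosin heavy chain of the adult mouse heart, differed, with 3457 bp in the replicated list, 8985 bp for pool G and 2411 bp for pool H, and its peak began 608 bp after the start. Actc1, cardiac actin, which like Myh6 was chosen after its values were seen, had 3360 bp in the replicated list, 3589 bp for pool G and 3217 bp for pool H. Tnnc1 and Csrp3 were the exceptions in direction, since their widest peak lay upstream of the principal start, and the peak of Tnnc1 was shared with Nisch. All 24 were at least 1500 bp wide in pool G and 22 in pool H, the exceptions being Ankrd1 at 1012 bp and Tnni3 at 1092 bp.

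Among genes of calcium handling and ion channels, 8 of 14 CpG-poor genes were members (beside 5.28% of all CpG-poor genes), with a median width of 3267 bp. These were Jph2, Pln, the calsequestrin gene Casq2, triadin (Trdn), the histidine-rich calcium binding protein Hrc and the potassium channel genes Kcna5, Kcnj5 and Kcnip2. Kcna5 had 3480 bp in the replicated list, 3541 bp for pool G and 2751 bp for pool H. Trdn had 3318 bp in the replicated list, 3322 bp for pool G and 3031 bp for pool H. Both lay well above the threshold in each pool. Of the other 6 CpG-poor genes of the list, 3 had a narrower peak and 3 had none (Kcne1, Scn4a and Sln).

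**Figure D3:**
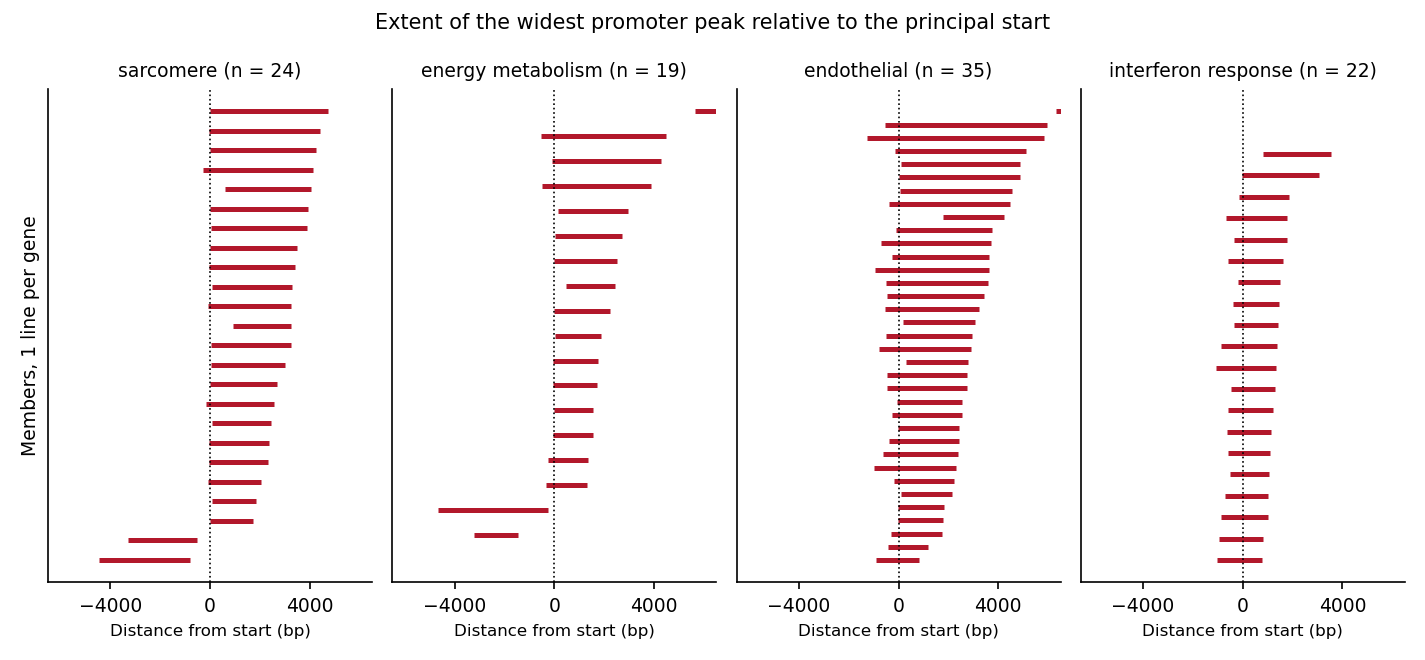
Extent of the widest promoter peak (1 horizontal line per member) relative to the principal start at 0 (x axis, bp, downstream positive, shown to 6500 bp either side) for the members of the sarcomere (24), energy metabolism (19), endothelial (35) and interferon response (22) lists, ordered by the downstream edge. In the sarcomere panel 18 of 24 lines begin within 100 bp of the start, and in the interferon panel 1 of 22 does; 2 energy, 1 endothelial and 2 interferon members reach or lie beyond the axis.

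Of the CpG-poor genes of energy metabolism, 19 of 27 were members (beside 5.28% of all CpG-poor genes), with a median width of 2261 bp and 97.8% of the peak downstream. The upstream edge lay within 100 bp of the start in 8 of the 19, with 9 of 19 in pool G and 11 of 19 in pool H. In the 5 energy genes with a narrower peak it lay within 100 bp in all 5. Ppargc1a, the coactivator of mitochondrial biogenesis, had 4373 bp in the replicated list, 4380 bp for pool G and 4410 bp for pool H. Ppp1r3a, a glycogen-targeting phosphatase subunit of striated muscle, had 4401 bp in the replicated list, 4747 bp for pool G and 2484 bp for pool H. Ppargc1a thus had the same width in both pools, and Ppp1r3a did not. Myoglobin (Mb) had 2817 bp in the replicated list, 2812 bp for pool G and 2816 bp for pool H, and the mitochondrial creatine kinase gene Ckmt2 had 2723 bp in the replicated list, 2719 bp for pool G and 2742 bp for pool H; both were chosen after their values were seen. Eno3, the muscle enolase gene, had the highest fold enrichment of all members, 27.3, but in a peak of 4399 bp upstream of its principal start that it shared with the CpG-rich Pfn1.

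The endothelial list had the highest share of members, set beside the 5.28% of all CpG-poor genes. Of its 43 CpG-poor genes 35 were members (81.4%), 4 had a narrower peak (Nostrin, Ly6c1, Lyve1 and Vwf) and 4 had none (Mmrn1, Plvap, Sele and Selp, among them selectins known from activated endothelium). Their median width was 3296 bp, and 35 passed 1500 bp in pool G and 34 in pool H. Cdh5, the cadherin of endothelial junctions, had 4845 bp in the replicated list, 5109 bp for pool G and 3399 bp for pool H. Aplnr, the apelin receptor, had 4777 bp in the replicated list, 4740 bp for pool G and 4389 bp for pool H. Grrp1 had 4846 bp in the replicated list, 4884 bp for pool G and 3987 bp for pool H, and Myct1 had 5259 bp in the replicated list, 5637 bp for pool G and 4413 bp for pool H. These peaks were as wide as those of the sarcomere list but few began at the start: the upstream edge was within 100 bp in 6 of 35, with 6 of 35 in pool G and 12 of 35 in pool H. That difference between lists was not tested, since the peaks chose the members.

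Fibroblast and mural genes had wide and narrower peaks in similar numbers. The counts of members here stand beside the 5.28% of all CpG-poor genes that were members. Of 34 CpG-poor genes of fibroblasts and matrix 14 were members, 12 had a narrower peak and 8 had none, and of 19 of mural cells and smooth muscle 5 were members, 8 had a narrower peak and 6 had none. Lama4 had 4245 bp in the replicated list, 4221 bp for pool G and 4298 bp for pool H. Sparcl1, a matricellular protein, had 3902 bp in the replicated list, 6395 bp for pool G and 3792 bp for pool H. Col1a1 and Col1a2, the chains of type I collagen, had 2147 and 1955 bp in the replicated list and were chosen after their values were seen. Smtn had 4765 bp in the replicated list, 5160 bp for pool G and 3047 bp for pool H, and Pdgfrb, the receptor that marks pericytes, had 2054 bp in the replicated list, 2124 bp for pool G and 1968 bp for pool H. Of the natriuretic and secreted factors 9 were CpG-poor, and Bmp4, the endothelin receptor gene Ednra and Fgf1 were members. The natriuretic peptide gene Nppb had a narrower peak, and 5 had none (Nppa, Agt, Fgf21, Gdf15 and Mstn). Of the heart transcription factors only 2 were CpG-poor, with Smyd1 as the 1 member (1886 bp in the replicated list, 1939 bp for pool G and 1290 bp for pool H).

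The tissue label was checked against marker genes. Of 8 cardiomyocyte markers all had a promoter peak, and the 6 that were CpG-poor were all members. The 6 endothelial and 6 fibroblast markers had a peak, as did 4 of 5 mural markers, whereas 0 of 6 immune, 0 of 4 hepatocyte and 0 of 2 autosomal neuronal markers did. Of 5 skeletal muscle markers 2 had a peak. They were Ckm, a creatine kinase gene also active in heart, and Mylpf, which is not CpG-poor and had a peak of at least 1500 bp. Acta1, Myh4 and Tnnt3 had none. In the longer lists of other tissues, set beside the 5.28% of all CpG-poor genes that were members, 1 of 42 CpG-poor immune genes was a member (2.38%; Tlr4, a receptor of innate immunity, with 2216 bp in the replicated list, 2210 bp for pool G and 2229 bp for pool H), 2 of 28 of skeletal muscle (7.14%; Ckm and Eno3, both also in the energy list), and 0 of 27 of hepatocytes, 0 of 10 of blood and 0 of 5 of neurons. The share of skeletal muscle genes was above that of all CpG-poor genes, and in the lists of blood and neurons that share amounts to less than 1 gene.

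**Figure D4:**
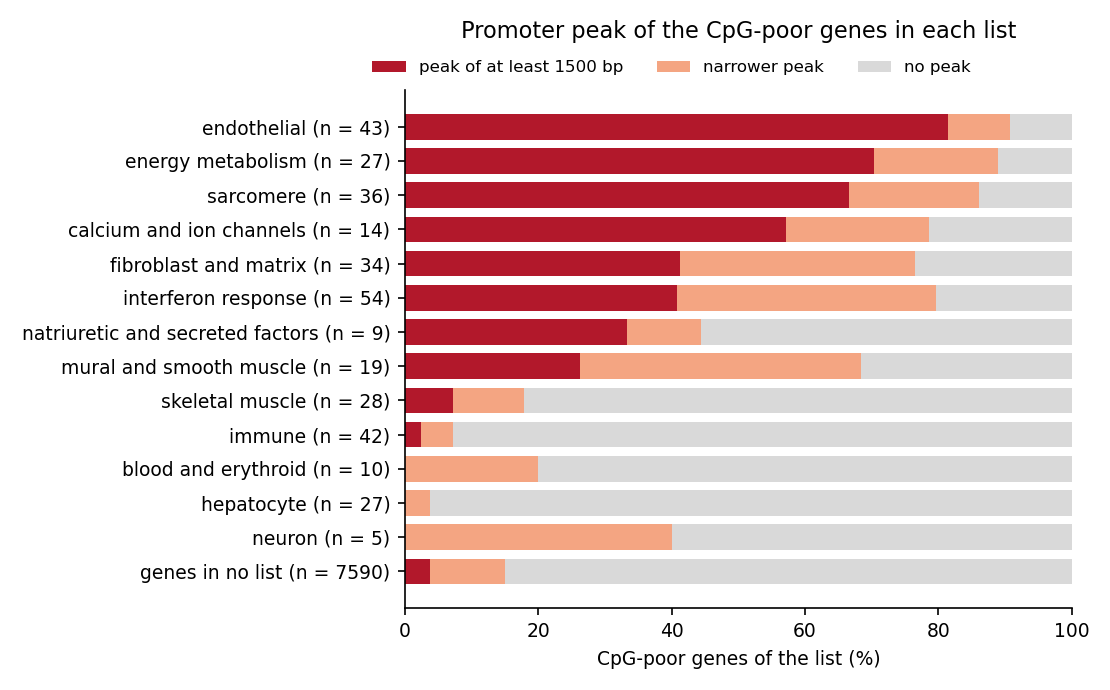
Share of the CpG-poor genes of each list (x axis, %, number of CpG-poor genes in parentheses) with a promoter peak of at least 1500 bp (red), a narrower peak (light orange) or no peak (grey) in the replicated list. Endothelial, energy and sarcomere genes are wide in 81.4%, 70.4% and 66.7%, against 3.78% of the 7590 CpG-poor genes in no list and 0% of hepatocyte genes.

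Interferon response genes were a further group, listed after the values were seen. Beside the 5.28% of members among all CpG-poor genes, 22 of the 54 in this list were members, 21 had a narrower peak and 11 had none. Their peaks were narrower than those of muscle and vessel genes, with a median of 1837 bp, and higher, with a median fold enrichment of 13.3 against 7.99 in the sarcomere members. They were also placed differently, with a median of 72.8% downstream of the start and an upstream edge within 100 bp of the start in 1 of 22, 1 of 22 in pool G and 0 of 22 in pool H. The principal start was covered in 19 of 22, against 10 of 24 in the sarcomere members, and any protein-coding start in 21 of 22, against 15 of 24. Ifitm3, an antiviral membrane protein, had 1867 bp in the replicated list, 1883 bp for pool G and 1514 bp for pool H. Bst2, tetherin, had 1855 bp in the replicated list, 1923 bp for pool G and 1710 bp for pool H. Like Igtp and Irgm2, both were chosen after their values were seen. Psmb10, a subunit of the immunoproteasome, had 1976 bp in the replicated list, 1996 bp for pool G and 2010 bp for pool H, with a fold enrichment of 21.8 in the replicated list, among the highest of all unshared members. Igtp at 1577 bp and Irgm2 at 2227 bp, immunity-related GTPases, are neighbours whose principal starts lie close together, but the widths are those of separate peaks. The peak of Igtp covered its principal start. That of Irgm2 began 14758 bp downstream of its principal start, at another annotated start of the gene.

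The 8 unshared members with the highest fold enrichment were Camk1, Vps28, Pxmp4, Sept4, Psmb10, Pea15a, Tgm2 and Bcam. Camk1, a kinase activated by calcium and calmodulin, reached 25.5 in the replicated list, 30.1 in pool G and 22.04 in pool H. Pxmp4, a peroxisomal membrane protein, reached 23.0 in the replicated list, 23.3 in pool G and 20.3 in pool H. Both were higher than any member of the sarcomere list, whose highest value was 12.9 in the replicated list. Tgm2, a transglutaminase that crosslinks proteins, reached 21.4 in the replicated list, 23.5 in pool G and 19.3 in pool H. The peaks of the 8 were 1732 to 2946 bp wide, and those of Sept4 (2510 bp) and Bcam (2946 bp) exceeded the median of all members. The members in no list numbered 287, with medians of 1970 bp in width and 10.2 in fold enrichment.

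Motifs were counted from 250 bp before to 50 bp after the principal start, on both strands. TATAAA, the core of the TATA box, was found in 12.4% of members, against 9.31% of narrower CpG-poor, 23.8% of unmarked CpG-poor, 6.10% of other wide and 12.6% of all promoters. On the gene's strand and starting 40 to 20 bp before the start, where the box works, it was found in 10 of 419 members (2.39%), against 2.06% of narrower CpG-poor, 5.67% of unmarked CpG-poor, 0.92% of other wide and 2.52% of all promoters. Members thus lay below unmarked CpG-poor genes by either count. Of those 10 members, the 6 widest with an unshared peak are shown on GRCm38 over 60 bases, from 50 bp before the start, with TATAAA in capitals, because the rest of the promoter around the box can be seen in them; they were chosen for the exact box.
Cpeb4, chr11:31872161-31872220, plus strand: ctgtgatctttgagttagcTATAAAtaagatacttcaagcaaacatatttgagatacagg
Aqp1, chr6:55336382-55336441, plus strand: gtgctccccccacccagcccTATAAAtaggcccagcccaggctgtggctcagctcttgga
Trim63, chr4:134315070-134315129, plus strand: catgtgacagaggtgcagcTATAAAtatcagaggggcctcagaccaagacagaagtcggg
Alpk3, chr7:81057550-81057609, plus strand: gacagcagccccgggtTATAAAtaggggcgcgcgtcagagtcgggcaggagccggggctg
Lrrc14b, chr13:74363996-74364055, minus strand: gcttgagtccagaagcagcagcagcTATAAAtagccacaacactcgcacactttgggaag
Dhrs7c, chr11:67798237-67798296, plus strand: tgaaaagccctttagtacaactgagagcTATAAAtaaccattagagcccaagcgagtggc
Aqp1 encodes a water channel of capillary endothelium, Trim63 a ubiquitin ligase of muscle, and Alpk3 a kinase-like protein of heart muscle. TATAAA began 22 to 34 bp before the start in the 6, and TA followed it in each.

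The share of promoters with motifs of tissue-specific factors varied between lists, most of which hold few genes. CATTCC, the MCAT element bound by TEAD factors in muscle, was found in 9 of 24 sarcomere members (37.5%) and in 16.2% of all members, 16.4% of unmarked CpG-poor and 13.1% of all promoters, but also in 3 of the 5 unmarked sarcomere genes. CAGCTG, an E-box bound by basic helix-loop-helix factors, was found in 12 of 19 energy members (63.2%), 9 of 24 sarcomere members (37.5%) and 22.9% of all members, against 16.8% of unmarked CpG-poor and 15.5% of all promoters. It was as common in the unmarked interferon response genes described above, with 7 of 11 (63.6%). CTANNNNTAG, the core of the MEF2 site, which can overlap TATAAA as in Aqp1, was found in 4 of 24 sarcomere members (16.7%) and 5.97% of all members, against 4.53% of unmarked CpG-poor and 3.47% of all promoters. AGGAAG, a core bound by ETS factors, was found in 23 of 35 endothelial members (65.7%) and 43.7% of all members. The share was 39.3% of unmarked CpG-poor and 34.2% of all promoters. This core was also found in 9 of 14 fibroblast members (64.3%) and in all 4 unmarked endothelial genes. CpG-poor genes with a narrower peak had CAGCTG in 22.3%, AGGAAG in 43.1% and CATTCC in 15.3%, close to the shares of all members. For CTANNNNTAG their share was below that of all members. The higher shares of CAGCTG and AGGAAG than in unmarked CpG-poor genes were thus not particular to wide peaks. Other motifs were no more common in members than in unmarked CpG-poor genes: TNAAGTG, bound by NKX2-5, was found in 11.5% of members and 15.2% of unmarked genes, AGATAA, read by factors of the GATA family, in 11.7% and 16.9%, AAGGTCA (estrogen-related receptors) in 4.77% and 6.22%, and GTAAACA (FOX factors) in 4.30% and 4.52%. In the sarcomere members TNAAGTG was found in 2 of 24 (8.33%) and AGATAA in 5 of 24 (20.8%). The CArG box of serum response factor was found in 2 of 24 sarcomere members and in 2 of 5 unmarked sarcomere genes. A match is a description of these letters, not a bound site.

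GAAANNGAAA, the core of the interferon-stimulated response element, is a pattern searched after the values were seen. It was found in 11 of 22 interferon response members. The share was 5.97% of all members, 6.71% of narrower CpG-poor, 4.47% of unmarked CpG-poor and 3.53% of all promoters. The neighbours Irgm2 and Igtp share 1 match, which was counted once for each gene. This match lies near both principal starts, inside the peak of Igtp and outside the wide peak of Irgm2. The principal start of Irgm2 was itself covered by another peak of the replicated list. The letters were also found in 8 of the 11 interferon response genes without a peak (72.7%), so their presence did not separate wide from unmarked genes. Of the members with a match, 5 are shown on the gene's strand on GRCm38 with the match in capitals, or its reverse complement where it lies on the other strand.
Ifitm2, chr7:140955978-140956027, minus strand: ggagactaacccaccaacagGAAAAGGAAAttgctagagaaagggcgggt
Rnf213, chr11:119392971-119393020, plus strand: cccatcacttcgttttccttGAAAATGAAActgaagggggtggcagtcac
Gbp5, chr3:142496749-142496798, plus strand: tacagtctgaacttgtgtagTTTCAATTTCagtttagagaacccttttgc
Bst2, chr8:71537567-71537616, minus strand: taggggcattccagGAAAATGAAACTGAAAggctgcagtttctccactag
Gbp2, chr3:142620584-142620633, plus strand: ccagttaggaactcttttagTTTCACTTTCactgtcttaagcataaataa
Ifitm2 encodes a relative of Ifitm3, Rnf213 a large ubiquitin ligase, and Gbp2 and Gbp5 guanylate-binding GTPases of defence within the cell. In Bst2 overlapping matches form a run of 3 GAAA repeats.

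**Figure D5:**
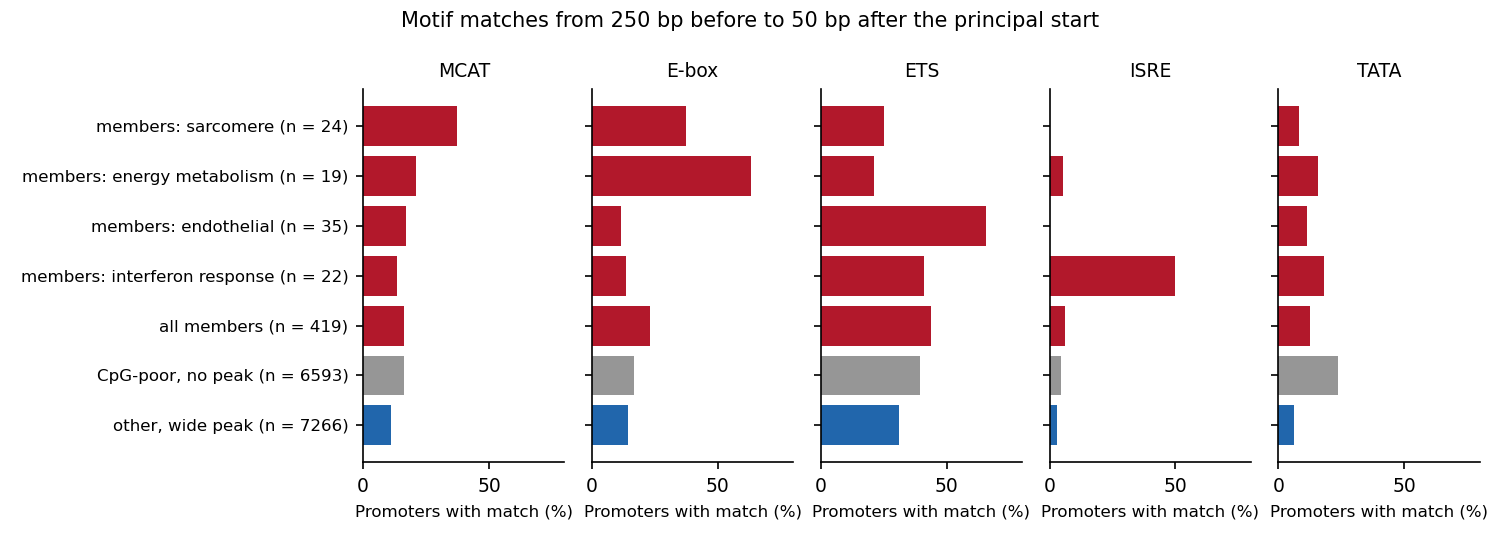
Share of promoters (x axis, %) with at least 1 match of the MCAT, E-box, ETS, ISRE or TATA letters given in the text, from 250 bp before to 50 bp after the principal start, for members of 4 lists and all 419 members (red), 6593 unmarked CpG-poor genes (grey) and 7266 other genes with a wide peak (blue). The highest bars are the ETS core in endothelial members (65.7%), the E-box in energy members (63.2%) and the ISRE core in 11 of 22 interferon response members.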

How the data were processed

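H3K4me3 was measured by chromatin immunoprecipitation and sequencing in 4 libraries of heart, 2 technical replicates of each of the pools G and H, of fragments between 200 and 600 bp, according to the labels. The deposited files are 4 narrowPeak lists on mm10. Pools G and H have 1 list each, and both together have 2, of which the one called replicated was used as the main list. Peak calling, with its tool, threshold and use of the control that the labels name, is not given in the sources used here. Each peak carries a signal value of the authors, which was taken to be a fold enrichment (a ratio over control); this is an assumption. A -log10 q value, also deposited by the authors, served in 1 alternative only.

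Starts were those of protein-coding transcripts of GENCODE M21, with the best-ranked APPRIS transcript giving the principal start. Observed over expected CpG was the CpG count times the window length over the product of C and G counts, from the GRCm38 sequence. A gene's peak was the widest one overlapping a window. The tools were Python 3.11.15 with pandas 2.3.3, numpy 2.4.6, scipy 1.17.1 and matplotlib 3.10.9, and interval overlaps and CpG ratios were tested on simulated data against bedtools 2.31.1 and known answers. Replicates were not averaged and no test was made, since peak width chose the members. Depth is unknown, so intervals cover counting error only.

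The members and gene lists were chosen with earlier results of these data known. The interferon response list, its motif, the gene families and the count of edges within 100 bp were added after the values were seen. Named genes were the 15 widest unshared members, the 8 highest in fold enrichment, up to 4 of each list, the 3 widest shared and the 3 nearest the threshold on either side; not every one is given. Any other gene named in the text was chosen after its values were seen, the single genes named in counts of lists and the genes whose TATA or interferon motif is shown included. Alternatives were the other 3 lists, widths of 1000 and 2000 bp, CpG thresholds of 0.3 and 0.5, windows of 500 and 2000 bp, another CpG formula, the principal start only, gaps of up to 1000 bp joined, a -log10 q of at least 5 and shared peaks left out.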

Additional observations from a re-analysis of the deposited data

How the results depend on the processing

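The 419 members, 5.28% of CpG-poor genes, with a median width of 2131 bp, the start covered in 72.6% and the peak shared in 10.7%, were the same genes in the pseudoreplicated list of both pools. Both lists come from the same libraries, and each held 7561 peaks of at least 1500 bp. The match is therefore no independent check. Leaving out a pool, the count was 314 to 490, the share of CpG-poor genes 3.96 to 6.17%, the share with the start covered 65.3 to 76.7%, the shared peaks 11.1 to 11.8% and the median width 2009.5 to 2144 bp, the lower value of each with pool H alone; 307 of the 314 and 412 of the 490 were among the 419. A width of at least 1000 bp gave 835 members, 10.5% and a median of 1501 bp, and of at least 2000 bp 227, 2.86% and 2782 bp. A CpG threshold of 0.3 gave 200 members, 3.18%, 68.0% covered and 2252 bp, and of 0.5 949, 9.60%, 79.5% covered, 18.1% shared and 1977 bp. Windows of 500 bp gave 4.18% and 2319.5 bp, and of 2000 bp 1252 members, 11.9%, 80.8% covered, 19.8% shared and 1866.5 bp. With the principal start only 77.0% were covered. Joined gaps gave 6.59%, 14.5% shared and 2441 bp, and leaving out shared peaks 4.71% and 0.0% shared. The other CpG formula, the q threshold and a count of neighbours with a start inside the peak, added after the data were seen, moved none of the 5 values by more than its interval or the spread between pools. The count of members thus depends on the width, CpG and window chosen. No paired analysis was possible because the technical replicates share 1 alignment per pool and the results come from no test. Depth is not given, which limits what a missing or narrow peak can show.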

Other observations

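Gene families, grouped by symbol after the values were seen, show which CpG-poor genes stayed without the mark. Of 1122 CpG-poor olfactory receptor genes 0 were members and 2 had any promoter peak, and none of 326 vomeronasal receptor, 42 beta-defensin and 25 killer lectin-like receptor genes had one. Of 103 keratin and keratin-associated genes 0 were members and 1 had a peak. Of 115 CpG-poor genes with a Zfp symbol, most of them zinc finger proteins, 75 had a promoter peak and 9 were members (7.83%, beside 5.28% of all CpG-poor genes), so that most of the peaks there were narrower.

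The 14 CpG-poor S100 genes, which encode small calcium-binding proteins, were either wide or unmarked: 6 were members, with a median width of 2256 bp, and 8 had no peak (42.9% members, beside 5.28% of all CpG-poor genes). S100a1 and S100a13 lie in the same peak, so the 6 members rest on 5 peaks. Of 8 Gimap genes, GTPases of lymphocytes and endothelium, 4 were members (beside 5.28% of all CpG-poor genes), with a median of 2518 bp, 2 had a narrower peak and 2 had none. Of 85 CpG-poor cytochrome P450 genes 5 were members (5.88%, near the share over all CpG-poor genes), with a median of 1562 bp. Across chromosomes the share of CpG-poor genes that were members ran between 3.55% on chromosome 12 and 8.33% on chromosome 19. Of the members, 35 had a start within 50000 bp of that of another member that lay in a separate peak.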
